A study of Mus musculus with 13 samples.

Results

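Transcripts of fatty acid (FA) uptake and oxidation were followed in the left ventricle (LV) of mice that overexpress LXRα in the heart and of Wt littermates, after pressure overload or sham surgery. The genes were 30, chosen by name and ordered by step: uptake and activation, the carnitine shuttle, the acyl-CoA dehydrogenases, the later steps of the mitochondrial spiral, the handling of unsaturated FAs, electron transfer, the thioesterases and the peroxisome. A probe was measured where the authors' software detected it above the negative controls at a detection p under 0.01 on at least 3 of 13 arrays. By that rule 27 of the 30 genes were measured, among 7837 genes in all, by 42 of 49 probes that carry their symbols. Acsl1 and Hadha had no probe with that symbol, and the probe for Ehhadh was detected on 0 arrays.

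The arrays were Illumina mouse BeadChips, and by their labels 3 came from LXRα-Tg mice after sham surgery (LXRα-Tg sham), 3 from LXRα-Tg mice after TAC (LXRα-Tg TAC), 4 from Wt mice after TAC (Wt TAC) and 3 from Wt mice after sham surgery (Wt sham). TAC is transverse aortic constriction, a band on the aorta that raises the load on the LV. The mice were male, of strain C57BL/6 and 4 months old, and had lived 5 weeks with TAC or sham surgery. The series' design text gives 3 per group, while 4 arrays carry the Wt TAC label, and all 4 were kept. LXRα-Tg mice carry murine LXRα under the αMHC promoter, which drives it in cardiomyocytes, and were founded in FVB oocytes and backcrossed to C57BL/6 for at least 3 generations. Wt mice were littermates without it. The labels do not tie each array to a mouse, so each p-value reflects the spread from array to array, which may be technical.

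Nr1h3, which encodes LXRα, checks the genotype labels. On a log2 scale after normalization it read 7.84, 8.26 and 14.80 in Wt sham, 7.97, 14.84, 8.39 and 8.06 in Wt TAC, 7.36, 8.32 and 14.71 in LXRα-Tg sham, and 14.88, 14.71 and 8.49 in LXRα-Tg TAC. On 5 arrays the level went against the label: Wt sham 3, Wt TAC 2, LXRα-Tg sham 1, LXRα-Tg sham 2 and LXRα-Tg TAC 3. Group names below are those of the labels, every direction rests on them, and values without these arrays are given beside each comparison of the members except Wt TAC against Wt sham, where the median without them was −0.14 against −0.11 with them. Eif2s3y, a Y-linked gene, was not detected on Wt sham 1 and LXRα-Tg TAC 3, although all mice are labelled male. Over all genes, 102 rose and 22 fell in LXRα-Tg sham against Wt sham at a limma adjusted p under 0.05 (1.58% of 7837), and 0 genes (0%) were called in each of the other comparisons. With arrays scaled to the median of all probes, 174 rose and 2 fell.

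The adult heart draws most of its ATP from FAs. FAs enter the cardiomyocyte with the help of transport proteins, are joined to CoA, and cross the inner mitochondrial membrane as carnitine esters. In the matrix each round of oxidation removes an acetyl-CoA through a dehydrogenase, a hydratase, a second dehydrogenase and a thiolase, and the electrons pass through the electron transfer flavoprotein to the respiratory chain. In the hypertrophied heart the use of FAs is known to decline while that of glucose increases, and PPARα with its coactivator PGC-1α drives transcription of many of these genes. LXRα is a nuclear receptor for oxysterols that raises lipogenic and cholesterol efflux genes.

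The members lay lowest in LXRα-Tg sham. In that group 24 of 27 had their lowest group mean, and 20 of 27 had their lowest single array. Against Wt sham all 27 differences were below 0, with a median of −0.41 on the log2 scale beside −0.01 over all genes, of which 51.2% were below 0, and with arrays scaled to the median of all probes it was −0.32 beside 0.15, with 26 of 27 below 0. The sign held for 42 of 42 probes. Slc27a1 was the 1 member that fell past the adjusted threshold, where 0.281% of all genes fell, and at an unadjusted p under 0.05 it was joined by 9 others, so that 10 of 27 members lay lower where 6.74% of all genes did. That count was 4 (1.58% of all genes) with arrays scaled to the median of all probes, and 15 (9.26%) when they were scaled to the median of the measured probes. It was 6 without Wt sham 1 (4.68%) and 6 without LXRα-Tg sham 3 (6.98%). Without the 5 arrays at odds with their label it was 17 (7.13%), with a median of −0.70 that rests on a single LXRα-Tg sham array. In 9 of 27 members the 3 LXRα-Tg sham arrays lay below the 3 Wt sham arrays without overlap, beside 9.4% of all genes.

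**Figure D1:**
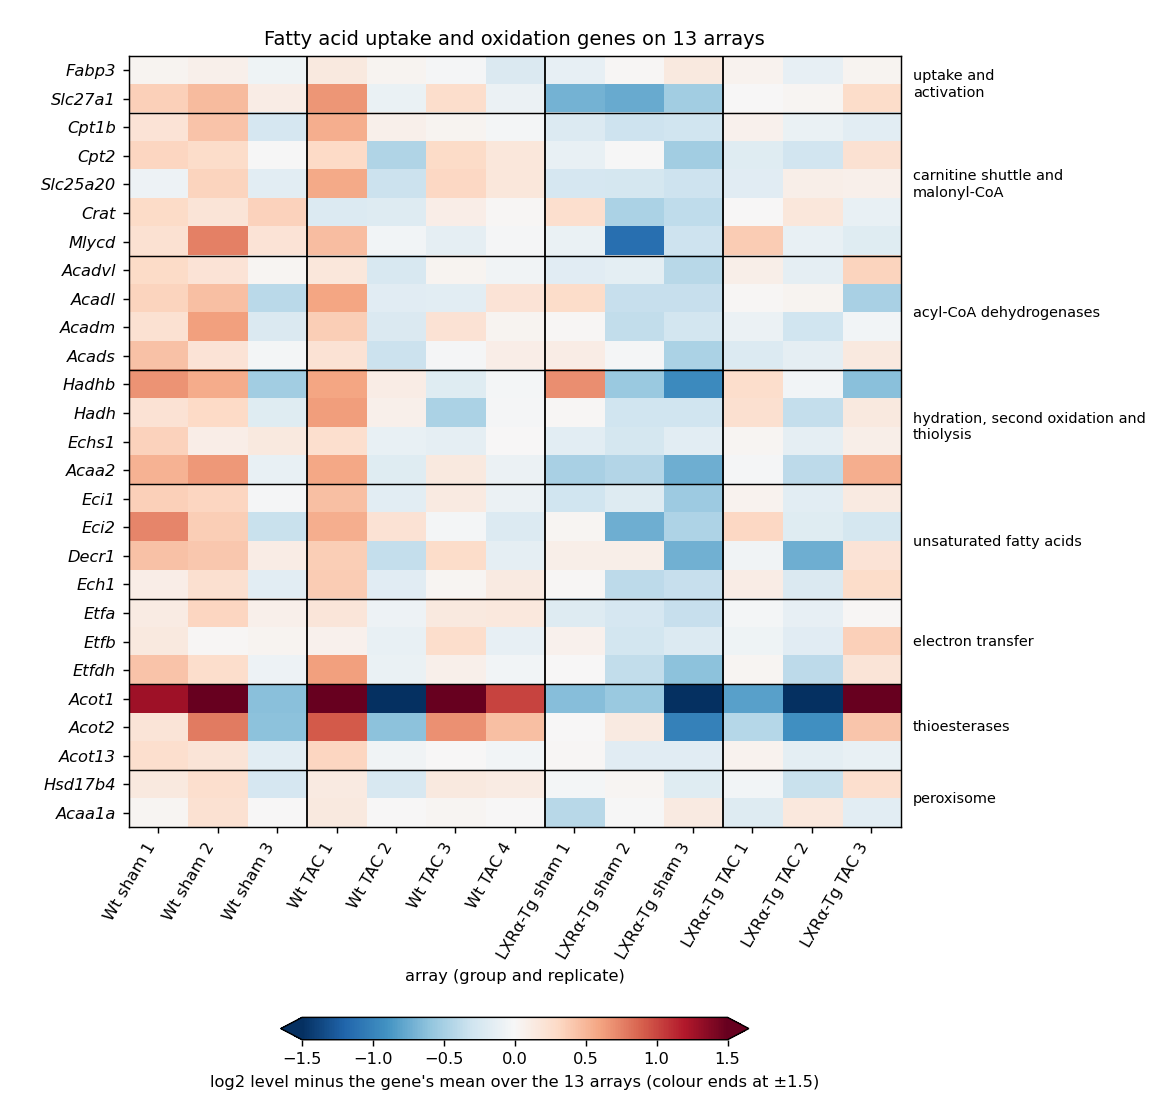
Log2 level of the 27 measured genes (rows, by step) on 13 arrays (columns, by labelled group), each shown as its difference from the gene's own mean over the arrays, with colour ending at ±1.5. LXRα-Tg sham 2 and 3 are lowest for 10 and 9 of the genes, Wt TAC 1 is highest for 11, and Acot1 and Acot2 are the rows of strongest contrast.

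Single arrays carried much of this pattern, and it did not follow the groups alone. Members moved together from array to array: the number below their own mean was 1, 0 and 18 of 27 in the 3 Wt sham arrays, 1, 21, 8 and 14 in Wt TAC, 14, 23 and 25 in LXRα-Tg sham, and 12, 22 and 9 in LXRα-Tg TAC. Over all genes that share ran from 46.3% to 56.7% per array. Wt sham 3 thus stood apart from the other Wt sham arrays, and Wt TAC 1 and Wt TAC 2 stood at opposite ends of 1 group. The mean of the 27 members, each centred on its own mean, was 0.20 ± 0.28 in Wt sham (SD, n = 3), 0.10 ± 0.27 in Wt TAC (SD, n = 4), −0.28 ± 0.19 in LXRα-Tg sham (SD, n = 3) and −0.05 ± 0.20 in LXRα-Tg TAC (SD, n = 3). On the arrays with high Nr1h3 it was −0.11 (Wt sham 3), −0.23 (Wt TAC 2), −0.47 (LXRα-Tg sham 3), −0.02 (LXRα-Tg TAC 1) and −0.27 (LXRα-Tg TAC 2). With low Nr1h3 it was −0.09 on LXRα-Tg sham 1, −0.30 on LXRα-Tg sham 2, and above 0 on the rest. A relation of the members to Nr1h3 was not tested.

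Of the uptake genes, Slc27a1 (also FATP1), a transporter of long-chain FAs at the plasma membrane, differed most clearly. Its log2 level was 7.97, 8.09 and 7.73 in Wt sham, 8.27, 7.51, 7.87 and 7.53 in Wt TAC, 6.90, 6.85 and 7.09 in LXRα-Tg sham, and 7.62, 7.64 and 7.89 in LXRα-Tg TAC. The 3 LXRα-Tg sham arrays lay below each of the other 10. Against Wt sham Slc27a1 fell by 0.98 (standard error 0.19, limma adjusted p = 0.0294), 1.97-fold lower, and LXRα-Tg TAC lay 0.77 above LXRα-Tg sham (standard error 0.19, limma adjusted p = 0.513), which did not pass. The call was lost when any 1 of 5 sham arrays other than Wt sham 3 was left out (limma adjusted p from 0.0612 to 0.151), and on slide 1 and slide 2 alone the difference was −1.13 and −0.76. Leaving out the 5 arrays with Nr1h3 at odds with their label gave −0.94 (limma adjusted p = 0.209).

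**Figure D2:**
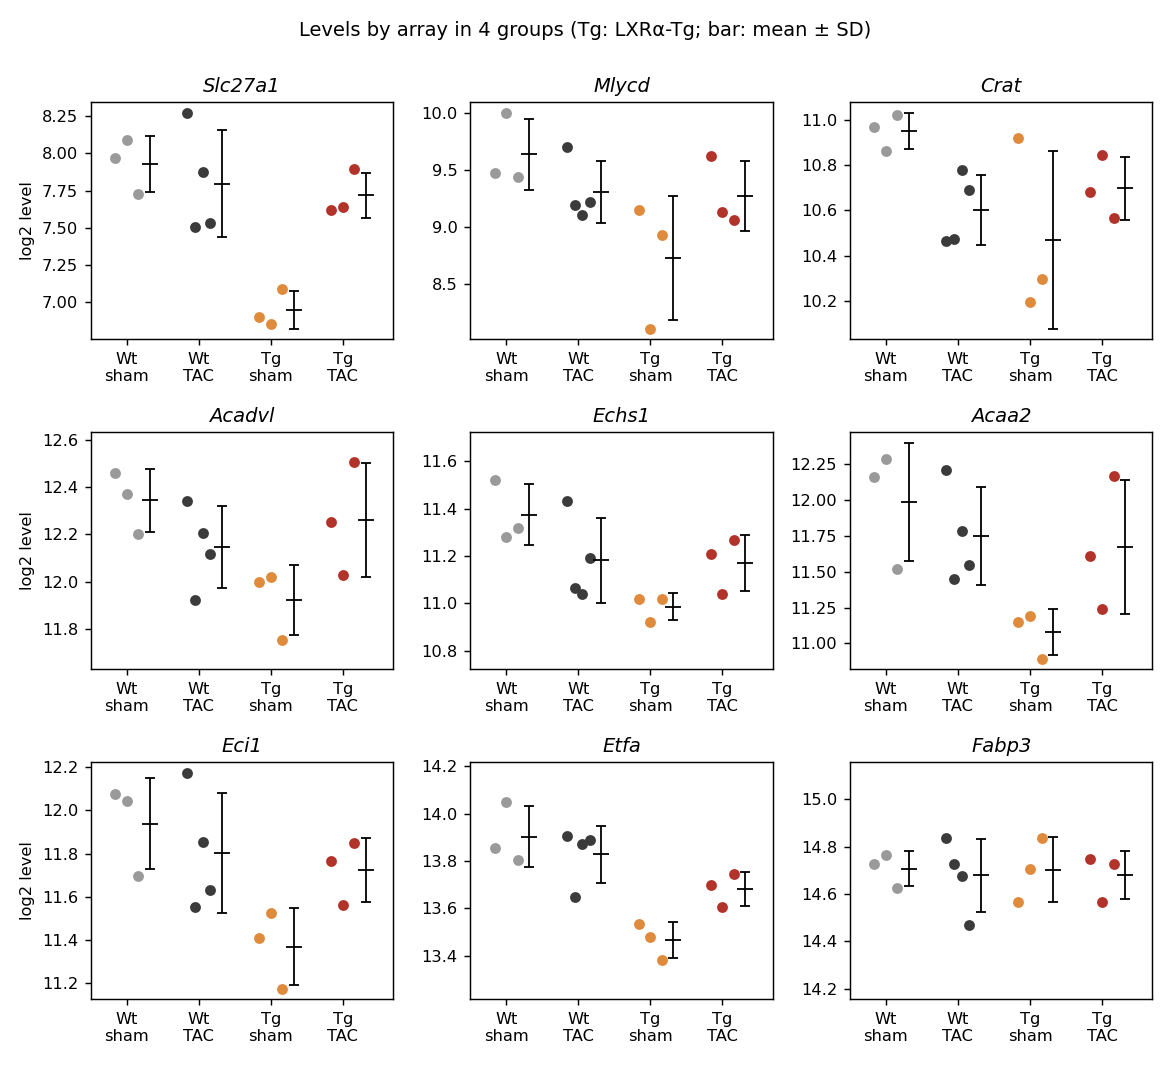
Log2 level of 9 genes (vertical axes, which span at least 1 unit) in the 4 labelled groups, 1 point per array, with the group mean and SD beside the points. Slc27a1 in LXRα-Tg sham lies between 6.85 and 7.09, below all other arrays, whereas Fabp3 lies between 14.47 and 14.84 in all groups.

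RefSeq lists 3 start sites for Slc27a1. The window of 250 bases before and 50 after the start (GRCm38.p6, plus strand, chr8:71570344-71570643) is shown because it holds both promoter elements searched for that are common among the members, a CCAAT box and GC boxes (GGGCGG), in capitals on either strand.
Slc27a1: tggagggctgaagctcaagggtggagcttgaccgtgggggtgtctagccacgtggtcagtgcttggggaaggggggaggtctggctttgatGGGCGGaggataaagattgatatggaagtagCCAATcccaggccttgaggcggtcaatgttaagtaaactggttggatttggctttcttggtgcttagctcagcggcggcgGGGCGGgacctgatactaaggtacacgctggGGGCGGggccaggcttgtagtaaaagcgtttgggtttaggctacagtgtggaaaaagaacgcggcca
Counted from the start, the CCAAT letters lie at −128 to −124, and 3 GC boxes begin at −159, −48 and −17.

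Fabp3, the FA-binding protein of the cardiomyocyte cytosol, was among the brightest probes, with a signal of 21915 to 28603 where the highest signal on an array was 26584 to 35350. Near the top of the scale differences can be understated. Its difference between LXRα-Tg sham and Wt sham was −0.00 (standard error 0.13). Of 14 other genes of uptake and activation 8 were measured, 0 were called and 3 lay lower in LXRα-Tg sham at an unadjusted p under 0.05 (6.74% of all genes). Cd36, the main sarcolemmal FA translocase, was not detected on any array. The paper measured CD36 protein and reports no appreciable difference between LXRα-Tg and Wt, so non-detection here does not show that the transcript is absent. Lpl, the lipase that frees FAs at the endothelium, differed by −0.02 (standard error 0.15).

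All 5 genes of the carnitine shuttle and malonyl-CoA step lay lower in LXRα-Tg sham than in Wt sham, with a median of −0.41. Of these 0 were called by limma, and 2 had an unadjusted p under 0.05, where 6.74% of all genes lay lower. Mlycd, malonyl-CoA decarboxylase, removes the malonyl-CoA that inhibits the shuttle. It read 9.48, 10.002 and 9.44 in Wt sham, 9.71, 9.20, 9.11 and 9.23 in Wt TAC, 9.15, 8.11 and 8.93 in LXRα-Tg sham, and 9.62, 9.13 and 9.06 in LXRα-Tg TAC. LXRα-Tg sham 2, at 8.11, was the lowest of 13, and the sham groups did not overlap. The difference was −0.91 (standard error 0.27, limma adjusted p = 0.113).

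Crat, carnitine acetyltransferase, which buffers acetyl-CoA, behaved less uniformly. Its levels were 10.97, 10.86 and 11.02 in Wt sham, 10.47, 10.48, 10.78 and 10.69 in Wt TAC, 10.92, 10.20 and 10.30 in LXRα-Tg sham, and 10.68, 10.84 and 10.56 in LXRα-Tg TAC. LXRα-Tg sham 1 fell among the Wt sham arrays. The sham difference was −0.48 (standard error 0.18, limma adjusted p = 0.203), and on slide 1 alone it was 0.0051. Crat was the 1 member whose Wt TAC arrays all lay below the Wt sham arrays. Cpt1b, the muscle form of the outer membrane acyltransferase that commits FAs to oxidation, had 11.60, 11.82 and 11.14 in Wt sham and 11.19, 11.08 and 11.09 in LXRα-Tg sham, groups that overlapped through Wt sham 3. Cpt2 and the carrier Slc25a20 differed by −0.41 (standard error 0.22) and −0.31 (standard error 0.20).

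The 4 acyl-CoA dehydrogenases, which take the first step of each round for chains of falling length, had differences between −0.42 and −0.27. Acadvl, for very long chains, gave 12.46, 12.37 and 12.20 in Wt sham, 12.34, 11.92, 12.21 and 12.12 in Wt TAC, 12.00, 12.02 and 11.75 in LXRα-Tg sham, and 12.25, 12.03 and 12.51 in LXRα-Tg TAC. The LXRα-Tg sham arrays overlapped neither Wt sham nor LXRα-Tg TAC, and differed from Wt sham by −0.42 (standard error 0.16, limma adjusted p = 0.202). Acadm, for medium chains, was bright, at a log2 level of 13.45 to 14.43, and differed by −0.42 (standard error 0.21). Acadl and Acads differed by −0.27 (standard error 0.27) and −0.33 (standard error 0.19). The promoter window of Acadvl (GRCm38.p6, minus strand, chr11:70015379-70015678) is printed because it is 1 of 3 member windows, with those of Acadm and Echs1, that hold AGGTCA, the core hexamer that the elements of PPARs, LXRs and ERRs share, shown in capitals at −87 to −82 from the start.
Acadvl: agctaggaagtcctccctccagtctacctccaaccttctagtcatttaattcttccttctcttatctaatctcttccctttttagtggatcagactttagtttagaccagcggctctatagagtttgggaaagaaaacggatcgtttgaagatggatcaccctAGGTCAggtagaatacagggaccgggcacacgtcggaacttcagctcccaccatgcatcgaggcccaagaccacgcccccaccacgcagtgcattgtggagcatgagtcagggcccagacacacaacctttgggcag
On either strand AGGTCA was found in 16.3% of 32851 mouse windows of this length. The direct repeat of this hexamer with a spacer of a single base (DR1, the PPAR element), that with the spacer of the LXR element (DR4), and TCAAGGTCA (the ERR element, which holds the hexamer) were found in 0 of 27 windows of 24 members, and in 0.0396%, 0.0152% and 0.423% of all windows. Only exact matches inside the windows were counted. With shares this low over all windows, 0 of 27 cannot show that the members lack such elements. CCAAT was found in 13 of 27 windows (37.4% of all) and the GC box in 19 of 27 (35.7% of all). Crat, Cpt1b, Hsd17b4, Acot13, Acaa2 and Decr1 were not analysed in this way.

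In the later steps of the spiral Acaa2, the mitochondrial thiolase that ends each round, stood out. It read 12.16, 12.28 and 11.52 in Wt sham, 12.21, 11.45, 11.78 and 11.55 in Wt TAC, 11.15, 11.19 and 10.89 in LXRα-Tg sham, and 11.61, 11.24 and 12.17 in LXRα-Tg TAC. As with Slc27a1, every LXRα-Tg sham array was below each of the other 10, by −0.91 from Wt sham (standard error 0.27, limma adjusted p = 0.110) and with LXRα-Tg TAC 0.60 above (standard error 0.27, limma adjusted p = 0.695). Echs1, the short-chain enoyl-CoA hydratase, gave 11.52, 11.28 and 11.32 in Wt sham and 11.02, 10.92 and 11.02 in LXRα-Tg sham, a difference of −0.39 (standard error 0.13, limma adjusted p = 0.171). Hadhb, the thiolase subunit of the trifunctional protein, ranged within groups from 11.65 to 12.84 in Wt sham and from 11.22 to 12.86 in LXRα-Tg sham. Its within-group SD of 0.59 was wider than that of 95.4% of genes, and its difference was −0.51 (standard error 0.41). Hadh, the short-chain hydroxyacyl-CoA dehydrogenase, was detected on 8 of 13 arrays at signals of 8.9 to 43.2, so its difference of −0.30 (standard error 0.25) rests on values near background.

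The isomerases and the reductase that prepare unsaturated FAs had a median difference of −0.53. Eci1, the mitochondrial enoyl-CoA isomerase, gave 12.07, 12.04 and 11.70 in Wt sham, 12.17, 11.55, 11.85 and 11.63 in Wt TAC, 11.41, 11.52 and 11.18 in LXRα-Tg sham, and 11.77, 11.56 and 11.85 in LXRα-Tg TAC. Here too the LXRα-Tg sham arrays were the lowest 3 of 13, at −0.57 from Wt sham (standard error 0.18, limma adjusted p = 0.133). Eci2, Decr1 and Ech1 differed by −0.65 (standard error 0.29), −0.50 (standard error 0.28) and −0.29 (standard error 0.18), and none passed.

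Etfa, the alpha subunit of the electron transfer flavoprotein, had the tightest replicates among the members that differed. Its levels were 13.86, 14.05 and 13.80 in Wt sham, 13.91, 13.65, 13.87 and 13.89 in Wt TAC, 13.54, 13.48 and 13.38 in LXRα-Tg sham, and 13.70, 13.60 and 13.74 in LXRα-Tg TAC. All 3 LXRα-Tg sham arrays lay below the other 10, the within-group SD was 0.10, and the difference was −0.44 (standard error 0.12, limma adjusted p = 0.0959). It was called with arrays scaled to the median of the measured probes (−0.66, limma adjusted p = 0.0368), and not with arrays scaled to the median of all probes (−0.45, limma adjusted p = 0.234). The beta subunit Etfb differed by −0.21 (standard error 0.16), and Etfdh, which hands the electrons to ubiquinone, by −0.53 (standard error 0.23, limma adjusted p = 0.282).

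**Figure D3:**
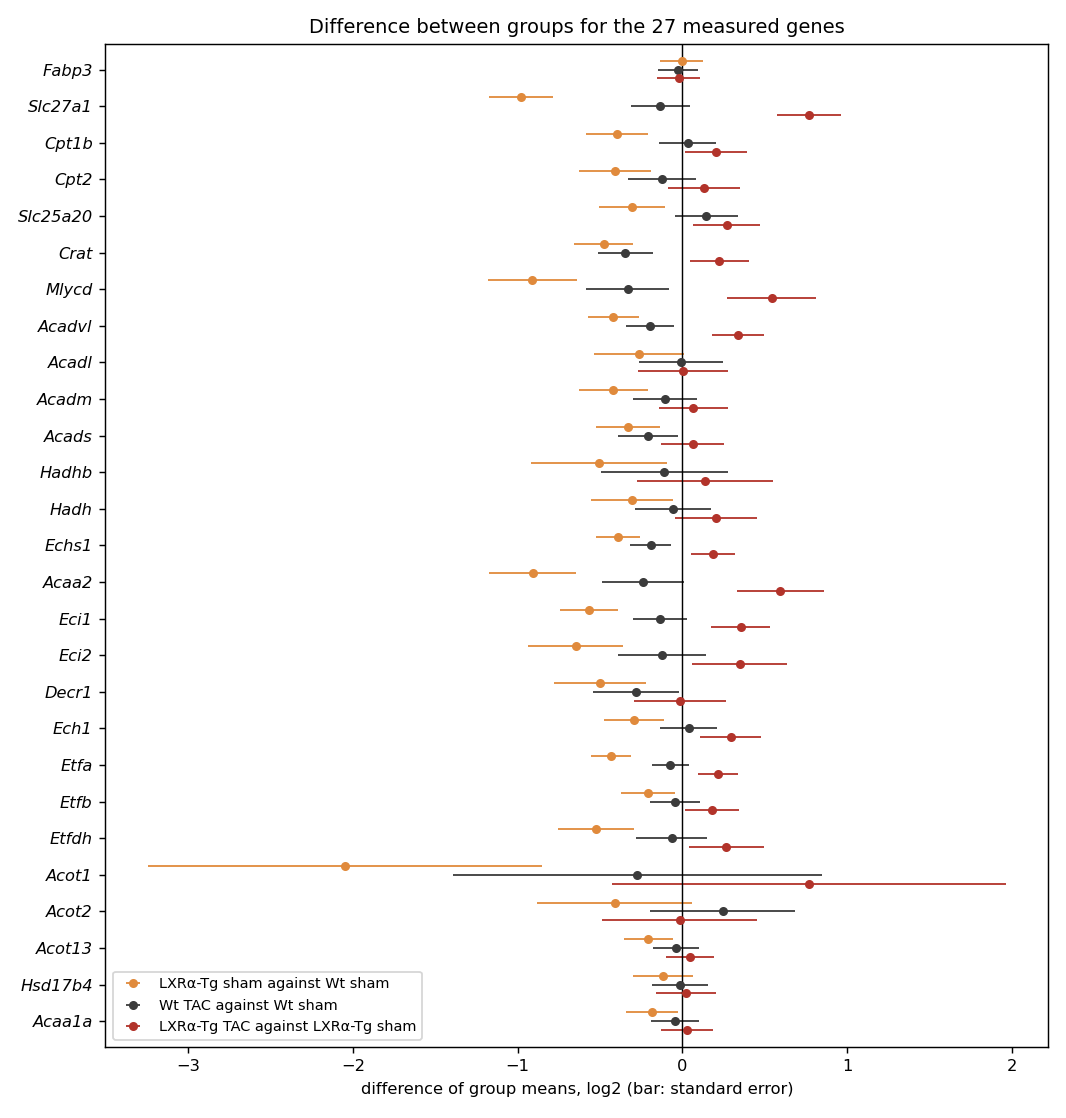
Difference of group means on the log2 scale (horizontal axis) with its standard error for the 27 measured genes (vertical axis), in LXRα-Tg sham against Wt sham, Wt TAC against Wt sham and LXRα-Tg TAC against LXRα-Tg sham, of which the first shares Wt sham with the second and LXRα-Tg sham with the third. The first comparison has all 27 values below 0 and the third has 24 above 0, while Acot1 has the widest error.

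The thioesterases free FAs from CoA, and Acot1 in the cytosol and Acot2 in the mitochondrion are encoded by neighbouring, closely related genes, so a probe can take signal from both. Acot1 varied far more than any other member, by a within-group SD of 1.74 on the log2 scale against a median of 0.23 over all genes, and 3 of 7837 genes had a wider one. In Wt sham it read 9.49, 10.13 and 7.60 where Nr1h3 read 7.84, 8.26 and 14.80. In Wt TAC the values were 10.10, 5.85, 10.01 and 9.23 beside Nr1h3 at 7.97, 14.84, 8.39 and 8.06. Acot1 thus fell into an upper range near 10 and a lower range inside single groups.

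In LXRα-Tg sham Acot1 read 7.57, 7.66 and 5.83 beside Nr1h3 at 7.36, 8.32 and 14.71. In LXRα-Tg TAC it read 7.40, 5.80 and 10.16 beside Nr1h3 at 14.88, 14.71 and 8.49. The array order did not follow the labels, and the difference between the sham groups, −2.05, had a standard error of 1.20 (limma adjusted p = 0.447). The dimmer Acot1 probe was detected on 6 of 13 arrays, which were Wt sham 1 and 2, Wt TAC 1, 3 and 4 and LXRα-Tg TAC 3, the same as those in the upper range of the brighter probe. Acot2 gave 6.80, 7.38 and 5.99 in Wt sham, 7.53, 5.99, 7.29 and 7.06 in Wt TAC, 6.61, 6.73 and 5.59 in LXRα-Tg sham, and 6.17, 5.69 and 7.02 in LXRα-Tg TAC. The same 6 arrays were the highest in Acot2. No relation of Acot1 to the Nr1h3 level was tested, since such groups are not those of the labels. Acot13, a thioesterase associated with mitochondria, stayed between 12.69 and 13.18.

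**Figure D4:**
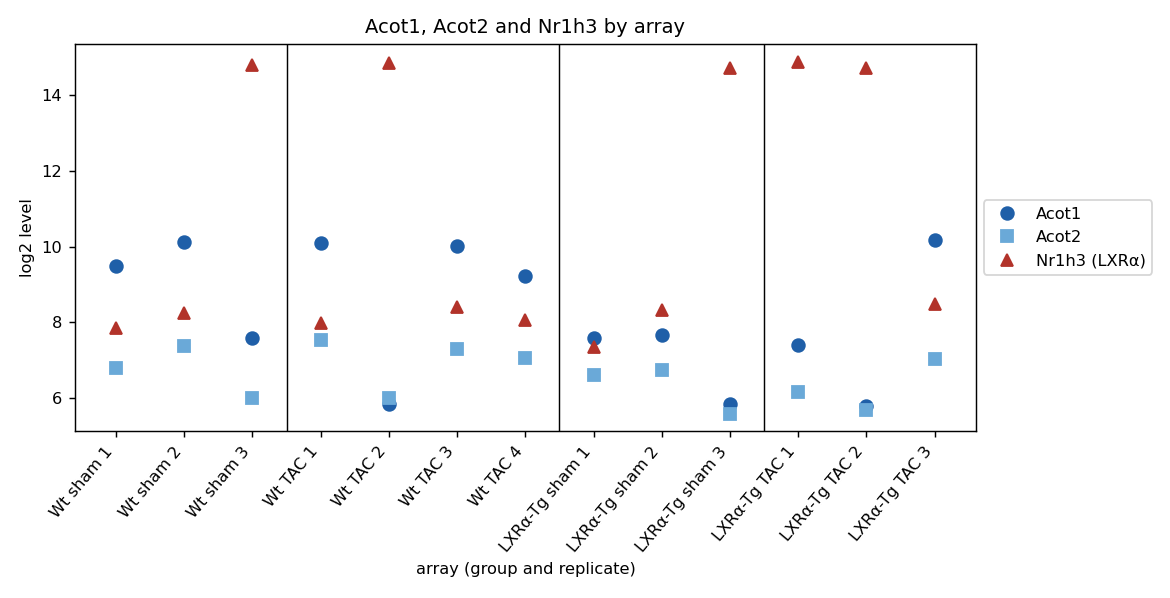
Log2 level (vertical axis) of Acot1, Acot2 and Nr1h3 on each of 13 arrays (horizontal axis), in labelled groups set apart by lines. Acot1 lies between 9.23 and 10.16 on 6 arrays and between 5.80 and 7.66 on the other 7, and Nr1h3 is above 14 on 5 arrays in all 4 groups.

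The promoter windows of these neighbours are printed because their levels moved together over the arrays. Acot1 (GRCm38.p6, plus strand, chr12:84009252-84009551) and Acot2 (plus strand, chr12:83987611-83987910) are shown with CCAAT and the GC box in capitals on either strand.
Acot1: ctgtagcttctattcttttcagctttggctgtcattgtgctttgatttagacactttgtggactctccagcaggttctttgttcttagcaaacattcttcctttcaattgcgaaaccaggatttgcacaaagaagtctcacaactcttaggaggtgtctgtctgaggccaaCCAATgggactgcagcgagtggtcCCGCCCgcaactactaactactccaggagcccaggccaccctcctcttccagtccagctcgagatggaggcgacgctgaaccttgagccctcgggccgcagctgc
Acot2: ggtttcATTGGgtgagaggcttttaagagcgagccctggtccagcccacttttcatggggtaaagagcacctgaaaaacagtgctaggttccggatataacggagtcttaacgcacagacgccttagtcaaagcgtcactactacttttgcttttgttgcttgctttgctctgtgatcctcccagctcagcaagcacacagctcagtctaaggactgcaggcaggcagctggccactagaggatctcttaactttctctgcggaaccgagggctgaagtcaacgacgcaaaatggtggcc
Acot1 holds CCAAT at −79 to −75 and a GC box at −55 to −50 from its start, whereas Acot2 holds CCAAT on the opposite strand at −244 to −240. Laid over each other without gaps at the best offset, the windows had 31.1% of 293 bases in common, and their longest identical run was 9 bases.

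Of the peroxisomal members, Hsd17b4, the bifunctional enzyme, and Acaa1a, the thiolase, gave differences of −0.12 (standard error 0.18) and −0.19 (standard error 0.16), among the smallest of the 27. Of 19 other peroxisomal genes 10 were measured and 0 were called. Abcd3, a transporter of acyl-CoAs into the peroxisome, differed by −0.68 (standard error 0.19, limma adjusted p = 0.0995).

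TAC moved the members little in Wt. Against Wt sham their median was −0.11 on the log2 scale with 23 of 27 below 0, but 0.065 with arrays scaled to the median of all probes, where the median of all genes moved to 0.19, and 0.092 on slide 2 alone. With 1 array left out it ran from −0.23 without Wt sham 3 to −0.0010 without Wt sham 2, where 14 of 27 were below 0, and it was −0.23 without Wt TAC 1, −0.059 without Wt sham 1, −0.045 without Wt TAC 4 and −0.030 without Wt TAC 2. None was called, and 0 of 27 lay lower at an unadjusted p under 0.05, beside 2.13% of all genes. Non-overlap toward lower values was found for 1 of 27, Crat, beside 2.87%.

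In LXRα-Tg, the median difference of TAC from sham was 0.20, with 24 of 27 above 0, and 0.06 with that scaling, beside −0.17 over all genes. The paper reports from its LV profiling that TAC lowered FA metabolism in both genotypes alike. The direction of the members in LXRα-Tg was opposite to that statement, whose genes the paper's text does not list. The arrays themselves overlapped, since the member mean of LXRα-Tg TAC 2, at −0.27, lay below that of LXRα-Tg sham 1, at −0.086. Without the 5 arrays at odds with their label the median was 0.30. None of the 27 was called, Slc27a1 and Acaa2 were higher at an unadjusted p under 0.05 (3.1% of all genes), and in 8 of 27 the groups did not overlap (5.75% of all genes): Slc27a1, Cpt1b, Slc25a20, Acadvl, Echs1, Acaa2, Eci1 and Etfa. The sham arrays that serve as reference here are the same that lay low against Wt sham, so the 2 comparisons are not independent. The LXRα-Tg TAC arrays did not stand above Wt TAC: the median was −0.11 with 23 of 27 below 0, 0 of 27 were called, 0 lay lower at an unadjusted p under 0.05 (2.86%), and 0 were without overlap (2.96%). Without the 5 arrays at odds with their label the median was −0.22 with 4 of 27 lower at an unadjusted p under 0.05 (4.8% of all genes). Leaving out LXRα-Tg TAC 2 gave −0.025 and leaving out Wt TAC 1 gave −0.035, each with 15 of 27 below 0, and leaving out Wt TAC 2 gave −0.17. Scaled to the median of all probes, this median was −0.33, beside −0.20 over all genes.

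The difference of the TAC effects, LXRα-Tg less Wt, had a median of 0.26 with 26 of 27 above 0, which was 0.012 with arrays scaled to the median of all probes, where all genes moved to −0.37. Without the 5 arrays at odds with their label it was 0.44. It was 0.17 without Wt TAC 2 and 0.18 without LXRα-Tg TAC 3. None was called. At an unadjusted p under 0.05 there were 5 of 27 higher, Slc27a1, Crat, Mlycd, Acadvl and Acaa2, beside 4.2% of all genes. With 1 array left out this count ran from 1 without Wt TAC 2 (3.65% of all genes) to 6 without Wt TAC 1 (4.3%) or LXRα-Tg TAC 2 (4.72%). Slc27a1 gave 0.90 (standard error 0.26, limma adjusted p = 0.287) and Mlycd 0.87 (standard error 0.37, limma adjusted p = 0.444). This contrast uses all 4 groups, including the low LXRα-Tg sham arrays.

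Around the members, 1 gene of the lists of other pathway genes was called, Plin4, a coat protein of lipid droplets. Its levels were 10.91, 11.02 and 10.98 in Wt sham, 10.79, 10.63, 10.50 and 10.58 in Wt TAC, 10.03, 9.98 and 10.45 in LXRα-Tg sham, and 10.70, 10.73 and 10.96 in LXRα-Tg TAC. LXRα-Tg sham again held the lowest 3 arrays, and Plin4 fell by 0.82 from Wt sham (standard error 0.15, limma adjusted p = 0.0207). The call was lost without Wt sham 1 and without LXRα-Tg sham 2, where 0 of 7837 genes were called. The direction was the same on both slides, with LXRα-Tg sham at 10.03 against 10.97 on slide 1 and 10.22 against 10.98 on slide 2. Of the list of regulators and PPAR targets 10 of 16 were measured, 0 were called and 10 of 10 were below 0 (51.2% of all genes), with a median of −0.47. Ppargc1b, which encodes the coactivator PGC-1β, differed by −0.67 (standard error 0.19, limma adjusted p = 0.105), and Ppara by −0.43 (standard error 0.17, limma adjusted p = 0.221). Ppargc1a (PGC-1α) at −0.56 (standard error 0.34), Esrra (ERRα) at −0.25 (standard error 0.15) and Pdk4, the kinase that shuts off pyruvate oxidation, at −0.51 (standard error 0.49) did not pass either. The paper's own PCR measurements went the other way for Ppargc1a and Pdk4. It reports Ppargc1a mRNA as raised in LXRα-Tg mice at baseline, and Pdk4 mRNA as raised in LXRα-Tg hearts.

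On the list of other mitochondrial oxidation 10 of 15 genes were measured, and 8 of these were below 0, beside 51.2% of all genes. Etfbkmt, a methyltransferase that acts on Etfb, was the lowest at −0.90 (standard error 0.21, limma adjusted p = 0.0529), but was detected on 6 of 13 arrays, so that this rests on values near background. Bdh1, a ketone body dehydrogenase, lay 0.90 higher (standard error 0.40, limma adjusted p = 0.286) and Etfrf1, a regulator of the electron transfer flavoprotein, 0.34 higher (standard error 0.12, limma adjusted p = 0.191). Neighbouring mitochondrial pathways lay at similar values. The 15 measured TCA cycle genes had a median of −0.40 with 14 below 0 in LXRα-Tg sham against Wt sham, and the 14 of branched-chain amino acid breakdown had −0.55 with 14 below 0, beside −0.41 for the members, and the differences between lists were not tested.

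Signals of several cell marker lists differed between the sham groups. The LV was labelled as the tissue, and the 11 measured ventricular cardiomyocyte markers had a summed signal, as deposited and before normalization, of 121120 to 140870 in Wt sham and 131210 to 149460 in LXRα-Tg sham. After normalization 7 of the 11 lay lower in LXRα-Tg sham, with a median of −0.11, 2 of them at an unadjusted p under 0.05 (6.74% of all genes), and 0 were called. The 6 measured of 8 atrial markers summed to 6691 to 11883 in Wt sham, 9984 to 33030 in Wt TAC, 27154 to 36370 in LXRα-Tg sham and 18848 to 33101 in LXRα-Tg TAC. These 6 were split after normalization. Against Wt sham 5 lay higher in LXRα-Tg sham and 1 lay lower, at −0.80, each at an unadjusted p under 0.05, and 1 of the 5 was called. Over all genes 9.34% lay higher and 6.74% lower at that threshold. The atrial list includes Nppa, whose mRNA (Anp) the paper reports as raised in LXRα-Tg mice at baseline. The mean of this list is therefore not a measure of atrial cells alone. Acta1, on the skeletal muscle list below, is likewise among the paper's fetal genes. Macrophage markers (9 of 11) summed to 2494 to 3793 in Wt sham and 4502 to 8698 in LXRα-Tg sham, and fibroblast markers (8 of 11) to 7936 to 10990 and 11787 to 15578, each without overlap. Skeletal muscle markers (5 of 10) summed to 7864 to 15032 in Wt sham and 27068 to 34848 in LXRα-Tg sham, where Acta1, which the heart also expresses, differed by 2.37 (standard error 0.74, limma adjusted p = 0.127) and the other 4 lay below 0, while Myh4, Myh1, Actn3 and Tnnt3 were detected on no array. Bmp10 among the atrial and Postn among the fibroblast markers were not detected. Liver markers (11 of 15) summed to 1970 to 14386 in Wt sham and 1004 to 4586 in LXRα-Tg sham, which overlap. Their sums were 934 to 7452 in Wt TAC and 2080 to 13427 in LXRα-Tg TAC. All 11 lay lower in LXRα-Tg sham than in Wt sham, 0 of them at an unadjusted p under 0.05. Alb, Fgb and Tat were detected on no array, as were 7 of 12 adipocyte markers. In bulk LV, fewer cells of a type and less RNA per cell cannot be told apart. When the mean of the atrial markers was added to the model, the members' median was −0.41 and 5 of 27 were lower at an unadjusted p under 0.05, beside 3.11% of all genes. In that model 0 of 7837 genes were called, against 124 without the term, and Slc27a1 was at −1.12 (limma adjusted p = 0.487). The part of the macrophage, fibroblast, skeletal muscle and liver signals in the members' values was not tested.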

How the data were processed

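LV RNA was profiled on 13 Illumina arrays. The authors deposited a linear signal intensity with background subtracted and a detection p-value per probe, made in GenomeStudio 2011.1 (the submitters' processing notes), and a table of processed intensity values used here as an alternative. In R 4.3.3, limma 3.58.1 normalized the signals by its neqc routine (normexp by detection p, offset 16, quantile). A probe entered if detected at p under 0.01 on at least 3 arrays, and the brightest stood for its gene. A group-means model over all arrays (lmFit, eBayes, 9 residual degrees of freedom) gave 5 comparisons, adjusted by Benjamini-Hochberg over 7837 genes and called under 0.05. It was tested on simulated data. Per array 9454 to 10392 probes were detected, and the number of arrays limits precision. Named genes were all members, called genes of the pathway lists and fixed regulators; Etfbkmt, Bdh1, Etfrf1, Acta1, Abcd3, Ppargc1b and the Acot1 pattern were singled out after their values were seen. Members, lists and tests were chosen with earlier results of these data known. Groups came from the labels, and replicate numbers are running numbers. Promoter windows are RefSeq's (GRCm38.p6), matched by symbol for 24 of 30 members, and searched in Python 3.11.15. Figures used matplotlib 3.10.9. Alternatives covered background, scaling, the filter, probe choice, slide, left-out arrays, array weights and the methods' tests.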

Additional observations from a re-analysis of the deposited data

Results flagged for a closer look

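Within Wt TAC, 5 of 27 members had 1 array set apart from the other 3 by more of the group's range than Dixon's critical value allows, which chance does in about 1 of 20 such groups and which 5.84% of all 7837 genes did here. The members moved together from array to array, so they are not separate trials, and Cpt2 passed the critical value only narrowly. Wt TAC 2 was the low array for Cpt2, the inner membrane carnitine acyltransferase, at 10.60 on the log2 scale where the others lay from 11.22 to 11.35. It was also low for Etfa at 13.65 (the others 13.87 to 13.91) and for Hsd17b4 at 10.47 (the others 10.83 to 10.85). Wt TAC 1 was the high array for Acot13 at 13.18 (the others 12.81 to 12.86) and for Acaa1a at 11.32 (the others 11.18 to 11.20). Nr1h3 goes against the label on Wt TAC 2 and not on Wt TAC 1.

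The effect of TAC ran in opposite directions in the 2 genotypes for 2 members, with every TAC array below the sham mean in Wt and above it in LXRα-Tg. For Crat the values were −0.35 in Wt and 0.23 in LXRα-Tg, a difference of 0.57 (limma adjusted p = 0.452). On slide 1 alone Crat was lower after TAC in both genotypes, at 10.47 against 10.92 in Wt and 10.68 against 10.92 in LXRα-Tg. The LXRα-Tg values there are 1 array against 1. The dimmer Crat probes gave 0.10 and −0.0011 for TAC in LXRα-Tg. For Acadvl the values were −0.20 and 0.34, a difference of 0.53 (limma adjusted p = 0.420). Neither gene passed the test of the difference over all genes. How many of all genes meet this rule was not counted.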

How the results depend on the processing

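The lower level of the members in LXRα-Tg sham kept its direction under every alternative run, with medians from −0.70 to −0.25, and −0.51 to −0.30 with 1 array left out. The single call did not hold as well. The count of called members, 1, was 0 on slide 1 alone, on slide 2 alone, after leaving out the 5 arrays with Nr1h3 at odds with their label (median −0.70, resting on 1 LXRα-Tg sham array), without the 2 arrays lacking Eif2s3y, by the methods' Bonferroni comparison and an unpaired form of their t-test (the paper names a paired one), with the atrial covariate and with median scaling over all probes, and 0 to 1 with 1 array left out. It was 2 with median scaling over the measured probes, where 105 of 7837 genes were called. With array weights it was 5, where calls over all genes rose to 475 from 124 in the main model. In the other comparisons 0 members were called under any alternative. With 1 array left out, the medians ran from −0.23 to −0.0010 for TAC in Wt, from 0.14 to 0.28 for TAC in LXRα-Tg, from −0.17 to −0.025 for LXRα-Tg TAC against Wt TAC and from 0.17 to 0.38 for the difference of the TAC effects. The median for TAC in Wt turned to 0.092 on slide 2 alone and to 0.065 with median scaling over all probes, and that for the difference of the TAC effects fell to 0.012 with the latter. For Crat, the sham difference turned to 0.0051 on slide 1 alone. Among 118 combinations of member and comparison with an unadjusted p of 0.05 or more, the sign changed in 285 of 3717 values. The cause of these shifts was not tested. Median scaling over all probes, the atrial covariate and leaving out Acot1 and Acot2 were chosen after seeing the data. The last changed no count of calls. The methods' tests were not run for the difference of the TAC effects. No paired analysis was possible because the labels give no replicate numbers. Signals near background limit Hadh, and signals near the top of the range limit Fabp3.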
